A study of Homo sapiens with 8 samples.

Results

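The genes described here repair DNA by homologous recombination, by the Fanconi anaemia pathway and by mismatch repair, together with the checkpoint kinases that signal broken or stalled DNA. They were measured on 8 one-colour Affymetrix arrays of total RNA from H1299, a cell line long established from a human lung cancer of the non-small cell type. A list of 42 genes was given by name, and every probe set whose platform annotation held exactly one gene symbol, equal to a listed name, was taken. This gave 91 probe sets for 38 of the 42 genes, out of 18132 genes with such probe sets in all. BRCA2, RBBP8, FANCA and FANCD2 had no probe set under this rule and are not analysed here. The first set of arrays compared H1299 cells given a short hairpin RNA (shRNA) to knock down USF1, a basic helix-loop-helix transcription factor that binds E-boxes, with their own controls, 3 arrays in each group. The second set compared 1 array of H1299 cells in which an shRNA was directed at UGT1A3, a glucuronosyltransferase, with 1 control array of its own. The labels name neither the hairpin sequences nor what the control cells received, and say nothing of separate cultures, so the p-values cover the spread among these arrays alone, which may be technical.

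Homologous recombination repairs a double-strand break by copying the sister chromatid. The MRE11, RAD50 and NBN complex opens the break, the nucleases EXO1 and DNA2 lengthen the single strand with the BLM or WRN helicase, and BRCA1 with BARD1, PALB2 and BRCA2 prepares the strand for exchange, in which RAD51C, XRCC2, XRCC3 and the RAD54 proteins act. The Fanconi core complex, with the E2 enzyme UBE2T, attaches ubiquitin to FANCD2 and FANCI at crosslinked DNA, and USP1 removes it. MSH6 recognises mismatched bases and PMS2 is part of the nuclease that acts next. Many of these genes are known to be transcribed mainly in S phase.

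The targeted gene and the cell line were checked first. USF1 read 6.31, 6.55 and 6.42 (log2 intensity) in the controls and 6.06, 5.88 and 6.13 after USF1 knockdown, a fall of 0.40 (SE 0.08, limma adjusted p = 0.00818). No probe set was specific to UGT1A3. The 9 probe sets shared over the UGT1A locus were all too dim to pass the brightness limit (log2 4.76 in this set), and their differences in the UGT1A3 pair ran from -0.45 to 0.06, so this knockdown could not be read from a gene-specific probe set. The carcinoma markers KRT8, KRT18, CDH2 and VIM were bright in both sets, while EPCAM and KRT19 were under the limit. Among markers of other cell types, PTPRC of leukocytes, CDH5 of endothelium, and DCN and COL1A1 of fibroblasts were under the limit in both sets. PECAM1 and VWF of endothelium, PDGFRB of fibroblasts, SFTPC and AGER of alveolar cells and CD68 of macrophages were over it in both. CD68 was the brightest of these, at 9.46 in the USF1 controls, and went from 7.71 to 8.18 in the UGT1A3 pair. The part of these markers in the results was not tested. Array medians were 6.53 to 6.55 in the USF1 set and 5.59 and 5.63 in the UGT1A3 set, so each knockdown was compared only with its own control. The number of arrays limits the precision.

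Because USF1 is known for binding the E-box CACGTG, promoter windows of the members were searched for this motif on both strands. The windows come from RefSeq (GRCh38.p14) and run from 250 bases before a gene's start to 50 bases after it. Of the 38 measured members 33 had a window, with 47 windows among them. CACGTG was found in 2 of these 33 genes (6.06%), RAD50 and FANCC, against 8.77% of 27305 genes and 7.26% of 35116 windows. CCAAT, the motif known for binding NF-Y, was found in 21 of the 33 (63.6%), against 39.7% of all genes. TTTCCCGC and TTTCGCGC, both of the kind bound by E2F factors, were found in 4 and 3 of the 33 (12.1% and 9.09%, against 1.98% and 0.63% of all genes), while TTTGGCGC was in 0 of the 33 and 0.795% of all genes. TTTGAA, a form of the element that binds the DREAM complex, was in 7 of the 33 (21.2%, against 18.2%). These matches describe letters in a window and not binding sites. The windows below are shown because MRE11, FANCB and BRCA1 had the largest falls and RAD51AP1 the largest rise after USF1 knockdown among genes with a window, and because RAD50 and FANCC hold CACGTG. BRCA1 and FANCC had 2 windows each, and the one that holds a marked motif is shown. Capitals mark CACGTG, and CCAAT or its complement ATTGG. Sequences are written 5′ to 3′ along the gene's strand.
MRE11, chr11:94493795-94494094, minus strand: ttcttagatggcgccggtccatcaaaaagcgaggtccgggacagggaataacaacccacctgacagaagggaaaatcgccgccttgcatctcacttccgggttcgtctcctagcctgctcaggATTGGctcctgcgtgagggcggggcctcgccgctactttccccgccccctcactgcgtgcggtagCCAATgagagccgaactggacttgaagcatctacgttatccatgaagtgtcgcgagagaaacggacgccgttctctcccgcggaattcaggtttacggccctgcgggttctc
FANCB, chrX:14873020-14873319, minus strand: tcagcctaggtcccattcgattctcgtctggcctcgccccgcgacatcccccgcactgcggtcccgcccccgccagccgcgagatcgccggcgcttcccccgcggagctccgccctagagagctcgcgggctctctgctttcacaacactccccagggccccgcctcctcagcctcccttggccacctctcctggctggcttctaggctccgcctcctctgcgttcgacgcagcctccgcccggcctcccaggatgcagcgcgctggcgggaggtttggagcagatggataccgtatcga
BRCA1, chr17:43125315-43125614, minus strand: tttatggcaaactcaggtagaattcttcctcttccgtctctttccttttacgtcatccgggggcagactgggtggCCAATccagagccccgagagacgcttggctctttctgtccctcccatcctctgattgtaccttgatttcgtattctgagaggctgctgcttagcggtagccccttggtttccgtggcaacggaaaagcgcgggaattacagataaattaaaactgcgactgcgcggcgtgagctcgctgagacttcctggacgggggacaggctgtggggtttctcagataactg
RAD51AP1, chr12:4538640-4538939, plus strand: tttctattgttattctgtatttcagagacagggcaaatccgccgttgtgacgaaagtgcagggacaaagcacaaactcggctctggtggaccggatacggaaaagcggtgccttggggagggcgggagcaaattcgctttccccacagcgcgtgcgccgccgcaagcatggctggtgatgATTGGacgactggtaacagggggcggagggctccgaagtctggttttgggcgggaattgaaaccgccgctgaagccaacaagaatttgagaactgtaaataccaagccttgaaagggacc
RAD50, chr5:132556727-132557026, plus strand: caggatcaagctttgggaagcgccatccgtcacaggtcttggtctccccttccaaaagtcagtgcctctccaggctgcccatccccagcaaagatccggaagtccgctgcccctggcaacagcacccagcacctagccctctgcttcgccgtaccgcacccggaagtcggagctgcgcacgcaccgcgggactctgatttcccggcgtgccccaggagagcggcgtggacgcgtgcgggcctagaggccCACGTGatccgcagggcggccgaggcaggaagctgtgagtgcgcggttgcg
FANCC, chr9:95317660-95317959, minus strand: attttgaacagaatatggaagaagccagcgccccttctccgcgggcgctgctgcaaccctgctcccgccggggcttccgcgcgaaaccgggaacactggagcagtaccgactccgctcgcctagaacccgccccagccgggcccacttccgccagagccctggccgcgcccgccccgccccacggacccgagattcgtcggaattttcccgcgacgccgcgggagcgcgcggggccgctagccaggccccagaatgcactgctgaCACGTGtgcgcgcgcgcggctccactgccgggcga
The FANCB window held neither motif. The CACGTG of RAD50 began 1 base before the start of the gene, and that of FANCC began 15 bases after 1 of its 2 starts. RAD50 fell after USF1 knockdown and FANCC did not pass the test, as given below.

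After USF1 knockdown 9 of 37 tested repair genes fell and 3 rose (limma, n = 3 against 3, adjusted p under 0.05 over all genes tested). DNA2, MRE11, FANCB, BRCA1, WRN, USP1, NBN, RAD50 and ATM fell, and RAD51AP1, RAD51C and UBE2T rose. Of all 11448 tested genes 40.7% passed, 18.7% downward and 22.0% upward, so the 32.4% of repair genes that passed lay below the share over all genes. The median change of the repair genes was -0.03 on the log2 scale, against 0.01 over all tested genes. The knockdown arrays of each of the 12 genes lay entirely above or entirely below the 3 controls. This also held for nearly every gene that passed, 2138 of the 2142 that fell and 2510 of the 2515 that rose (18.7% and 21.9% of all tested genes). Each of the 25 genes that did not pass had a 95% interval within 0.32 of 0 on the log2 scale, and BRIP1, the helicase that binds BRCA1, was too dim to be tested. The count of rises changed when single arrays were left out. It was 1, in place of 3, without USF1 control 1, control 3, knockdown 1 or knockdown 2, and with no limit on dim genes. Fewer of all tested genes passed there too: 31.8% to 37.8% without 1 of these arrays and 20.1% with no limit, beside 40.7%.

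**Figure D1:**
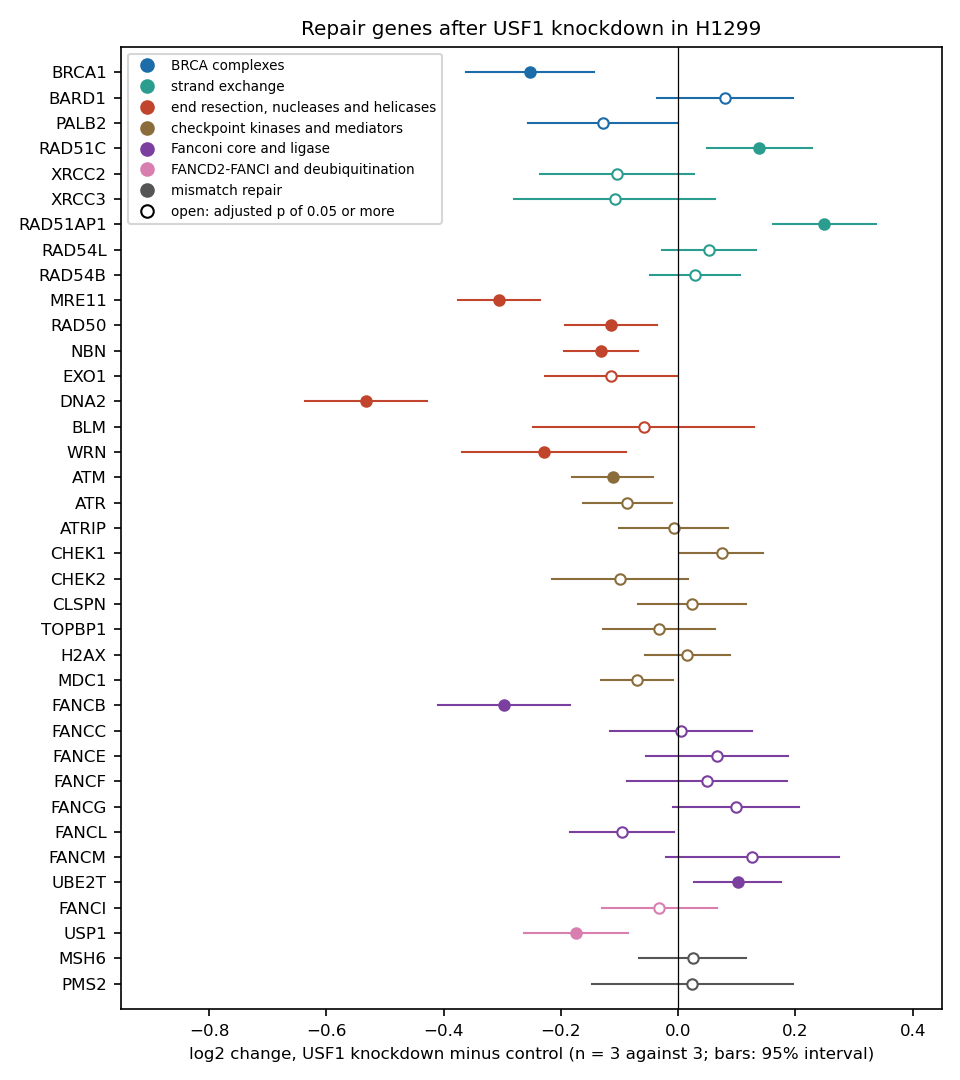
Log2 change of each tested repair gene after USF1 knockdown (x axis, knockdown minus control) with its 95% interval, coloured by role, n = 3 arrays against 3. Filled points passed an adjusted p of 0.05, and DNA2 at -0.53 lies farthest from 0.

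End resection held the largest changes. In this role 5 of 7 tested genes fell (71.4%, beside 40.7% of all genes passing in either direction), the other two did not pass, and the median was -0.13. DNA2, a nuclease and helicase that lengthens resected ends, read 8.15, 8.16 and 8.24 in the controls and 7.62, 7.61 and 7.72 after knockdown. The arrays did not overlap, and DNA2 fell by 0.53 (SE 0.04, limma adjusted p = 2.47e-04), which left 69.1% of the control level. Both of its probe sets gave -0.53.

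The genes of all 3 subunits of the MRE11, RAD50 and NBN complex fell by the probe sets that stood for them. MRE11, its nuclease, read 9.34, 9.32 and 9.36 in the controls and 9.06, 9.04 and 8.9998 after knockdown. It fell by 0.31 (SE 0.03, limma adjusted p = 4.52e-04), which left 80.9% of the control level, and its 4 bright probe sets gave -0.31 to -0.21. RAD50, the ATPase that holds the ends together and whose window carries CACGTG, read 10.28, 10.28 and 10.30 against 10.17, 10.22 and 10.12. It fell by 0.11 (SE 0.03, limma adjusted p = 0.0302), with probe sets from -0.13 to 0.003. NBN, which recruits ATM, read 10.92, 10.94 and 10.92 against 10.78, 10.81 and 10.80, all knockdown arrays lying below the controls. It fell by 0.13 (SE 0.03, limma adjusted p = 0.00795), with 5 bright probe sets from -0.13 to -0.01. As the mean of all probe sets, RAD50 and NBN changed by -0.08 and -0.06 and no longer passed (limma adjusted p = 0.14 and 0.114). RAD50 also did not pass without any one of the USF1 controls, without knockdown 1 or without knockdown 3 (adjusted p = 0.0695 to 0.095).

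Of the helicases, WRN, a RecQ enzyme with its own exonuclease, read 8.40, 8.63 and 8.49 in the controls and 8.32, 8.28 and 8.24 after knockdown. It fell by 0.23 (SE 0.06, limma adjusted p = 0.0201), and did not pass without control 3 (adjusted p = 0.0508) or knockdown 3 (0.0538). BLM, the other RecQ helicase of this step, changed by -0.06 (95% interval -0.25 to 0.13, limma adjusted p = 0.599), with overlapping arrays. EXO1, the exonuclease that acts in resection and in mismatch repair, changed by -0.11 (SE 0.05, limma adjusted p = 0.0961), and its arrays overlapped, with 8.32, 8.28 and 8.41 in the controls and 8.28, 8.21 and 8.17 after knockdown.

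**Figure D2:**
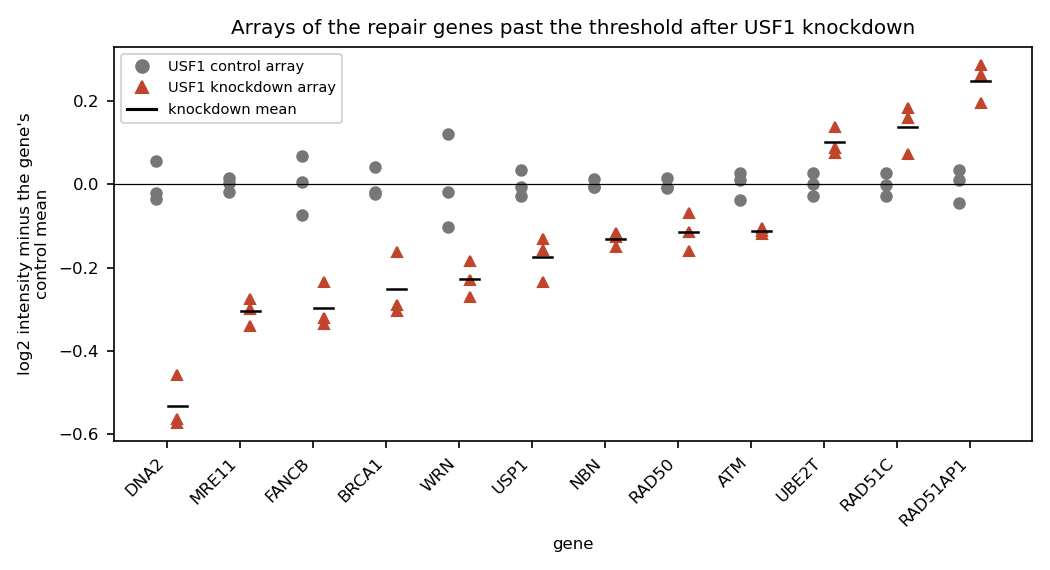
Log2 intensity of each of the 6 USF1 arrays minus the gene's control mean, for the 12 repair genes that passed after USF1 knockdown; circles are controls, triangles knockdown arrays, and the short bar their mean. The genes run from DNA2, whose triangles lie lowest, to RAD51AP1, whose triangles lie highest.

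Among the BRCA genes, BRCA1, the ubiquitin ligase that directs ends to recombination, fell and its partners did not pass. BRCA1 read 8.35, 8.29 and 8.29 in the controls and 8.15, 8.02 and 8.004 after knockdown. It fell by 0.25 (SE 0.05, limma adjusted p = 0.00504), which left 83.9% of the control level, and its 4 bright probe sets gave -0.25 to -0.13. BARD1, which forms the ligase with BRCA1, read 8.17, 8.09 and 8.16 against 8.25, 8.29 and 8.12, a change of 0.08 (95% interval -0.04 to 0.20, limma adjusted p = 0.233). PALB2, the bridge from BRCA1 to BRCA2, changed by -0.13 (SE 0.05, limma adjusted p = 0.102), with knockdown 2 at 8.72 above the lowest control at 8.71.

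In strand exchange 2 of 6 genes rose and none of the 6 fell (33.3% passing, beside 40.7% of all genes). RAD51AP1, which promotes strand pairing, read 9.70, 9.76 and 9.78 in the controls and 10.01, 10.03 and 9.94 after knockdown. It rose by 0.25 (SE 0.04, limma adjusted p = 0.00225), which made 119% of the control level, and its 4 probe sets gave 0.09 to 0.25. RAD51C, part of the complexes that assist strand exchange, read 9.99, 10.02 and 9.97 against 10.18, 10.15 and 10.07 and rose by 0.14 (SE 0.04, limma adjusted p = 0.0252), with bright probe sets from 0.02 to 0.14. RAD51C did not pass as the mean of its probe sets (0.10, adjusted p = 0.0647) or without control 1, control 3, knockdown 1 or knockdown 2 (0.0642 to 0.0851). XRCC2 and XRCC3, partners of RAD51C in such complexes, changed by -0.10 and -0.11, and the RAD54 motor proteins RAD54L and RAD54B by 0.05 and 0.03. None of these 4 passed, with limma adjusted p from 0.176 to 0.522, although the dimmer of the 2 XRCC2 probe sets gave -0.23 and passed when all probe sets were tested singly (limma adjusted p = 0.00312).

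In the checkpoint, 1 of 9 genes passed (11.1%, beside 40.7% of all genes) and the median was -0.03. ATM, the kinase that answers double-strand breaks, read 8.40, 8.38 and 8.33 in the controls and 8.26, 8.25 and 8.27 after knockdown, below every control. It fell by 0.11 (SE 0.03, limma adjusted p = 0.0214), while its 4 bright probe sets ran from -0.37 to less than 0.001, and it did not pass without control 1, control 2, knockdown 1 or knockdown 2 (0.0521 to 0.0754). ATR, the kinase of stalled forks, changed by -0.09 (adjusted p = 0.0681) and its partner ATRIP by -0.01 (0.893). The effector kinase CHEK1 changed by 0.07 (adjusted p = 0.0895), with 6 bright probe sets from 0.001 to 0.13, and CHEK2 by -0.10 (0.153). Of the mediators, CLSPN, TOPBP1 and H2AX changed by 0.02, -0.03 and 0.02, and MDC1 by -0.07 (limma adjusted p = 0.069). ATR, CHEK1 and MDC1 had knockdown arrays that did not overlap the controls, as did 53.6% of all tested genes, but missed the threshold.

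Most Fanconi genes did not pass. Of the 8 measured genes of the core and its E2 enzyme, 1 fell, 1 rose and 6 did not pass (25% passing, beside 40.7% of all genes), with a median of 0.06. FANCB, a core subunit that forms a module with FANCL and FAAP100, read 8.09, 8.23 and 8.17 in the controls and 7.83, 7.93 and 7.84 after knockdown. It fell by 0.30 (SE 0.05, limma adjusted p = 0.00296), which left 81.4% of the control level, on its only probe set. UBE2T, the E2 enzyme, read 10.93, 10.96 and 10.99 against 11.10, 11.05 and 11.04 and rose by 0.10 (SE 0.03, limma adjusted p = 0.0396). The UBE2T call was lost without each USF1 control and without knockdown 1 or knockdown 2 (adjusted p = 0.0627 to 0.125). FANCL, the ligase subunit, changed by -0.10 (limma adjusted p = 0.0806), and FANCM, the translocase that anchors the core, by 0.13 (0.151), with bright probe sets of -0.15 and 0.13. FANCC, which holds CACGTG in 1 of its 2 windows, changed by 0.005 (95% interval -0.12 to 0.13, limma adjusted p = 0.953). FANCE, FANCF and FANCG changed by 0.05 to 0.10 without passing. USP1, which removes ubiquitin from FANCD2, read 11.80, 11.74 and 11.76 against 11.54, 11.64 and 11.61. It fell by 0.17 (SE 0.04, limma adjusted p = 0.0098), and its second bright probe set gave -0.29. FANCI, the partner of FANCD2, changed by -0.03 (adjusted p = 0.581).

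Neither mismatch repair gene passed after USF1 knockdown, and 0 of 2 had an unadjusted limma p under 0.05. MSH6 read 11.02, 11.004 and 10.96 against 10.99, 11.09 and 10.99, a change of 0.02 (95% interval -0.07 to 0.12, limma adjusted p = 0.651). PMS2 read 6.03, 5.84 and 5.91 against 6.07, 5.94 and 5.84, a change of 0.02 (95% interval -0.15 to 0.20, limma adjusted p = 0.823). The arrays of both genes overlapped between the groups.

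In the UGT1A3 pair the repair genes lay mostly lower in the knockdown array: 31 of 37 were lower, beside 46.0% of all 11620 measured genes, 5 were higher and 1 was equal. A difference of at least 0.32 on the log2 scale was taken as the size limit for this pair. By this limit 18 of 37 repair genes were lower (48.6%), against 8.02% of all measured genes, and 0 of 37 were higher, against 11.1% of all genes. The median difference was -0.29 on the log2 scale, against 0.02 over all measured genes. With 1 array per group there is no test, and these values describe 2 arrays. At 1.5-fold, a limit chosen after seeing the data, 4 repair genes were lower, EXO1, CLSPN, XRCC2 and BLM, where 1.41% of all genes were. Of 79 bright probe sets of the members 67 were lower (84.8%), beside 46.5% of 27195 bright probe sets in all. Among the 21 members with over 1 bright probe set, 16 had all of them lower, 1 had all higher and 4 were mixed. Probe sets of one gene were not independent readings throughout, since MRE11 and NBN each had 2 with the same difference to 5 decimals. In a bulk sample a lower value cannot tell fewer cells of a type, or of a cell cycle phase, from less RNA per cell.

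**Figure D3:**
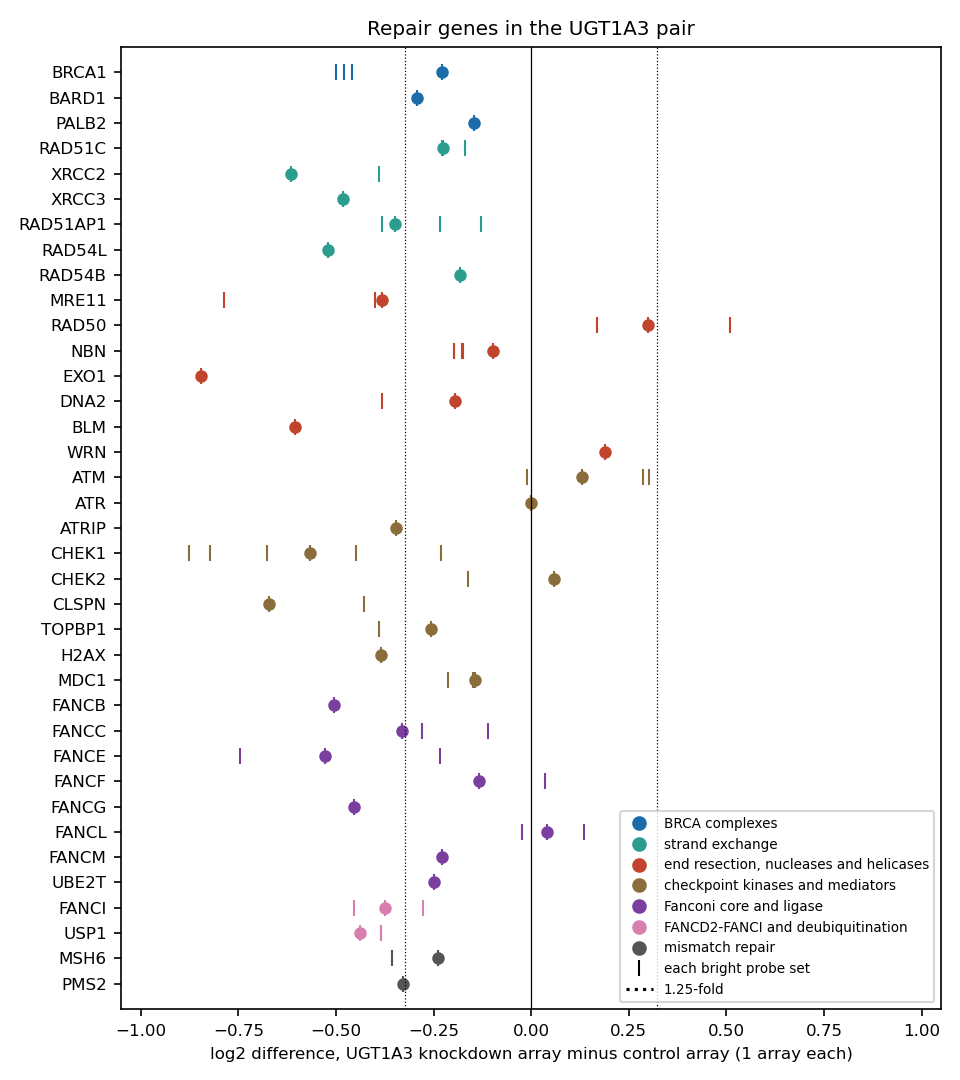
Log2 difference of each measured repair gene in the UGT1A3 pair (x axis, knockdown array minus control array, 1 array each), with circles for the probe set that stands for the gene, ticks for each bright probe set and dotted lines at a log2 difference of 0.32 in each direction. The 18 circles left of the lower line run from PMS2 at -0.33 to EXO1 at -0.85.

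In resection, EXO1 gave the largest difference of all members, at 7.82 in the control against 6.98 after knockdown, or 55.7% of the control level. BLM read 6.91 against 6.30 and MRE11 7.81 against 7.43, where the bright MRE11 probe sets ran from -0.79 to -0.38. RAD50 went the other way, from 9.08 to 9.37, and its 3 probe sets differed by 0.17 to 0.51. NBN differed by -0.10 and WRN by 0.19, and DNA2 by -0.20 or, on its other bright probe set, -0.38. By the probe sets that stood for them, the genes of all 3 subunits of the MRE11 complex were thus lower after USF1 knockdown. RAD50 and NBN did not pass there as the mean of all probe sets. In the UGT1A3 pair MRE11 was lower and RAD50 higher.

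In strand exchange all 6 genes were lower, beside 46.0% of all measured genes. Of these 4 passed the size limit (66.7%, beside 8.02% of all genes and 48.6% of members). XRCC2 went from 5.80 in the control to 5.19, RAD54L from 7.90 to 7.38, XRCC3 from 7.10 to 6.62, and RAD51AP1 from 9.36 to 9.01. RAD51C and RAD54B differed by -0.23 and -0.18. The BRCA genes stayed within the size limit by the probe sets that stood for them, with BRCA1 at -0.23, BARD1 at -0.29 and PALB2 at -0.15, although the other 3 bright BRCA1 probe sets gave -0.50 to -0.46.

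In the checkpoint 4 of 9 genes were lower by the size limit (44.4%, beside 8.02% of all genes and 48.6% of members). CLSPN, the adaptor that lets ATR activate CHEK1, went from 7.24 to 6.57, which is 62.8% of its control. CHEK1 read 9.16 and 8.59, and each of its 6 bright probe sets was lower, with differences from -0.88 to -0.23. H2AX, the histone variant phosphorylated at breaks, read 11.86 and 11.48, and ATRIP 6.48 and 6.13. The apical kinases were not among the genes that were lower, since ATR read 7.90 on both arrays and ATM differed by 0.13. Of the effector kinases, CHEK2 differed by 0.06 where CHEK1 differed by -0.57. Of the scaffolds, TOPBP1 differed by -0.26 and MDC1 by -0.15.

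In the Fanconi pathway 6 of 10 genes were lower by the size limit (60%, beside 8.02% of all genes and 48.6% of members). FANCE, a core subunit that binds FANCD2, went from 7.44 to 6.91, FANCB from 6.87 to 6.37, FANCG from 8.64 to 8.18, and FANCC from 7.03 to 6.70. USP1 read 10.62 and 10.18 and FANCI 8.63 and 8.25. FANCL stood apart from these at 0.04, and UBE2T, FANCM and FANCF differed by -0.25, -0.23 and -0.13. In mismatch repair PMS2 read 5.69 and 5.36 and MSH6 9.98 and 9.74, differences of -0.33 and -0.24.

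**Figure D4:**
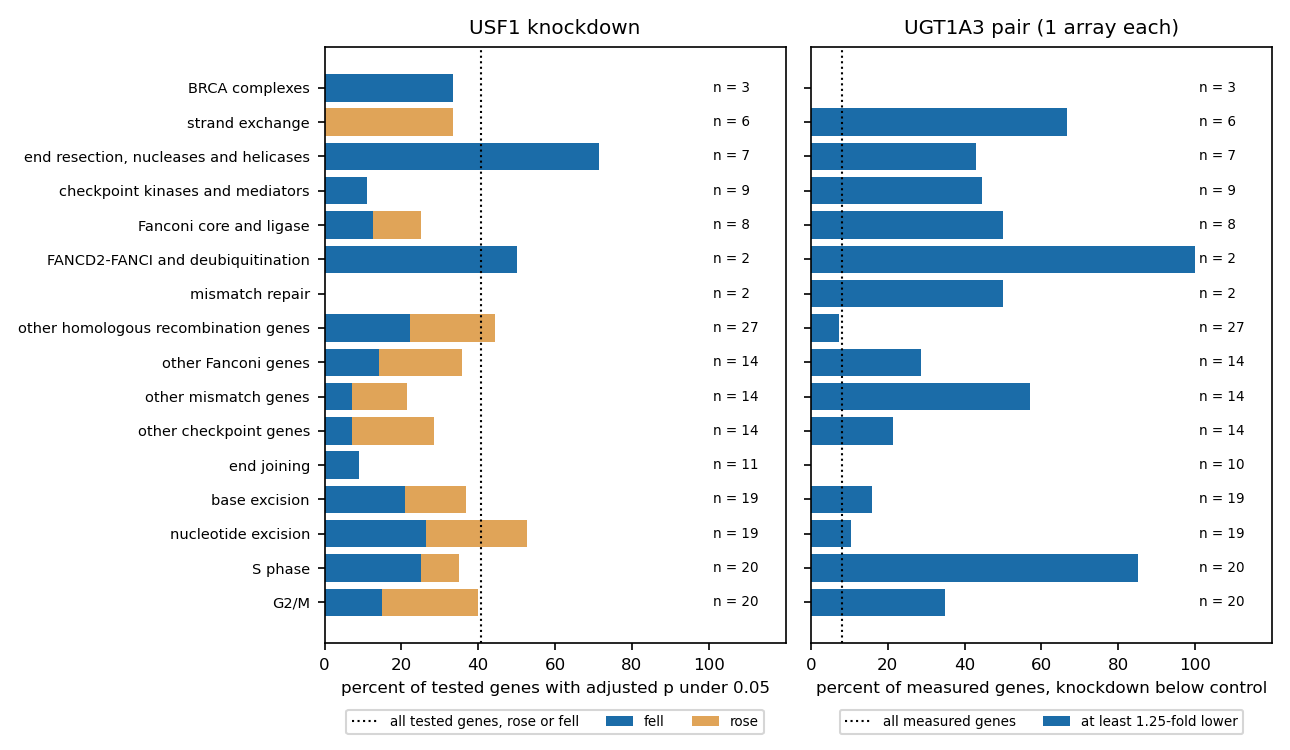
Percent of genes of each list that fell or rose after USF1 knockdown (left) and that were lower by at least 0.32 (log2) in the UGT1A3 pair (right), with the number of genes beside each bar and the share over all genes as a dotted line. End resection stands highest on the left at 71.4%, and S phase genes at 85% among the lists with over 2 genes on the right.

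The repair pathways were set beside other repair and cell cycle lists, without a test between them. Some lists share a gene: UNG is in base excision and S phase, and ERCC4 in other Fanconi and nucleotide excision. After USF1 knockdown 50% of 16 homologous recombination members passed, 30% of 10 Fanconi members, 11.1% of 9 checkpoint members and 0 of 2 mismatch members, beside 40.7% of all tested genes. Of the other lists, nucleotide excision (52.6%) and other recombination genes (44.4%) lay above that share. Base excision (36.8%), other Fanconi genes (35.7%), further checkpoint genes (28.6%), other mismatch genes (21.4%) and end joining (9.09%) lay below it. Of 11 end joining genes 1 fell, the kinase subunit PRKDC by 0.20 (limma adjusted p = 0.0128). Of 19 base excision genes 4 fell and 3 rose, led by the thymine glycosylase TDG, which fell by 0.91 (SE 0.04, limma adjusted p = 2.3e-05), a larger fall than that of any repair gene described above. Of 19 nucleotide excision genes 5 fell and 5 rose, among them RAD23B and ERCC2, which rose by 0.29 and 0.34, and UVSSA, which fell by 0.34. Among 27 other recombination genes 6 fell and 6 rose, with FIGNL1, BCCIP and MCM9 falling by 0.37, 0.31 and 0.20. Of 14 other Fanconi genes 2 fell and 3 rose, with the nuclease FAN1 falling by 0.31. Of 14 other genes of mismatch repair and its resynthesis 1 fell and 2 rose, with the clamp loader subunit RFC1 falling by 0.33 and the polymerase subunit POLD4 rising by 0.36.

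In the UGT1A3 pair the lists differed more. Of 20 S phase genes 17 were lower by the size limit, with a median of -0.68, and the helicase subunit MCM2 was lowest at -1.21. Of 20 G2/M genes 7 were lower by it, with a median of -0.25, and CDC20 was lowest at -0.62. Genes of these other lists named for the pair were chosen after their values were seen. The part of these cell cycle genes in the lower values of the repair genes was not tested. Of 14 other mismatch genes 8 were lower by this limit. They were RFC3 at -0.80, POLD1 at -0.71, PCNA at -0.51, RFC4, RFC5, LIG1, POLD2 and POLD3, which all also serve DNA replication. MSH3, PMS1 and MLH3 of the same list were not lower by it, at -0.01, -0.25 and 0.31. RFC1 and RFC2 were not either, and POLD4 was higher, at 0.56. Of 14 other Fanconi genes 4 were lower by this limit (28.6%, beside 8.02% of all genes) and of 19 base excision genes 3 were (15.8%). UNG, at -0.83, was among these 3 and also among the 17 S phase genes. The count was 2 of 19 in nucleotide excision (10.5%), 2 of 27 in other recombination genes (7.41%) and 0 of 10 in end joining. Of 14 other checkpoint genes 3 were lower (21.4%), the fork protection partners TIPIN and TIMELESS at -0.71 each and CDC25A at -0.40. Higher by the same limit were 3 of the 27 other recombination genes, 2 of 19 base excision and 2 of 14 other checkpoint genes. So were 1 of 19 nucleotide excision and 1 of 14 other mismatch genes, beside 11.1% of all genes. In the other Fanconi, end joining, S phase and G2/M lists 0 genes were higher by it. After USF1 knockdown the S phase list had 5 genes that fell and 2 that rose of 20, with a median of -0.03, MCM6 rising by 0.25 and CCNE1 falling by 0.27. The G2/M list had 3 that fell and 5 that rose of 20, with a median of 0.05, KIF11 falling by 0.32 and FOXM1 rising by 0.19.

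**Figure D5:**
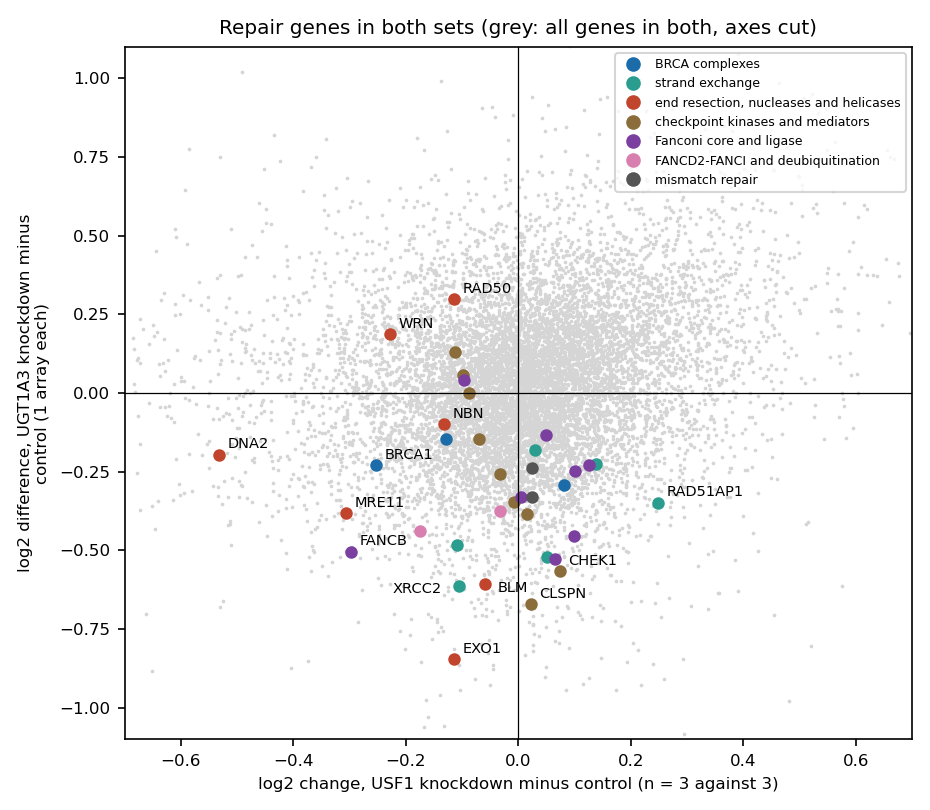
Log2 change after USF1 knockdown (x axis, n = 3 arrays against 3) against the log2 difference in the UGT1A3 pair (y axis, 1 array each) for the repair genes, coloured by role, over all genes measured in both sets in grey, with the axes cut. MRE11 and FANCB lie low on both axes, DNA2 lies farthest left, at -0.53 and -0.20 by the probe set that stands for it, and EXO1 lies lowest, at -0.11 and -0.85.

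Side by side, 3 of the 9 genes that fell after USF1 knockdown, MRE11, FANCB and USP1, were also lower by the size limit in the UGT1A3 pair. The pair has a control of its own, and 48.6% of all 37 measured repair genes were lower by this limit in it, beside 8.02% of all measured genes. Those 3 are 3 of the 18 that were lower in the pair. Of the 18, 14 had not passed after USF1 knockdown, beside 25 of all 37 tested repair genes. EXO1 changed by -0.11 after USF1 knockdown and differed by -0.85 in the pair, and CLSPN by 0.02 and -0.67. DNA2 changed by -0.53 after USF1 knockdown and differed by -0.20 in the pair, where its other bright probe set gave -0.38, past the size limit. RAD51AP1, which rose by 0.25 after USF1 knockdown, differed by -0.35 in the pair. The difference between the sets was not tested, since the pair has no replicates. Among control probe sets, the difference between 3' and 5' readings of ACTB was 0.34 and 0.40 in the UGT1A3 control and knockdown arrays, and 0.57 to 0.62 in the USF1 controls against 0.54 to 0.58 after knockdown.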

How the data were processed

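The authors deposited 1 table of log2 intensities for 49395 probe sets on 8 arrays, whose range fits a log2 scale. The submitters' processing notes name MAS5 with neither role nor version, and the labels and headers do not state how arrays were scaled. The 102 control probe sets were left out. Gene names came from the platform annotation, where 44988 probe sets had 1 symbol, 1832 several and 2473 none, and 44961 probe sets were matched by Entrez number to GRCh38.p14 names.

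The brightest probe set of a gene, by its mean in a set of arrays, stood for it. A limit was set at the 40th percentile of the mean levels of all probe sets, controls left out. It was log2 5.63 in the USF1 set and 4.76 in the UGT1A3 set. Genes below it were left out as dim, and probe sets above it are called bright. The USF1 set was fitted over 11448 genes by lmFit and eBayes of limma 3.58.1 under R 4.3.3 (two-sided), with Benjamini-Hochberg adjustment over all of them and a threshold of 0.05. The SE given is limma's moderated one, and the median SD within groups was 0.05. The UGT1A3 pair gave differences alone, with a size limit of 1.25-fold (0.32 on the log2 scale). On simulated data of the USF1 comparison with 11448 genes, each planted size had 50 genes. Of these 5 were found at 1.1-fold, 47 at 1.25-fold, and 50 at both 1.5-fold and 2-fold, beside 7 false calls. The simulation gave 159 calls in all, where the data gave 4657. The adjustment is less strict where more genes change, so these rates do not carry over to the data.

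Members are all 42 listed genes, and those described in full passed after USF1 knockdown with arrays apart, passed the size limit in the pair, or changed most in a role where none passed. Of the other lists, up to 3 genes with the smallest adjusted p after USF1 knockdown were named. The members, lists and rules were chosen with earlier results of these data known.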

Additional observations from a re-analysis of the deposited data

Results flagged for a closer look

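RAD51AP1 was 0.35 lower on the log2 scale in the UGT1A3 knockdown array (-0.35), while all 3 USF1 knockdown arrays lay above their controls. It was singled out because the arrays of the 2 sets moved in opposite directions. This was not particular to RAD51AP1: RAD51C and UBE2T also rose after USF1 knockdown and differed by -0.23 and -0.25 in the pair. RAD50, WRN and ATM fell after USF1 knockdown and were higher in the pair, where 31 of 37 repair genes were lower. The difference between the sets was not tested, and the pair has 1 array per group.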

How the results depend on the processing

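The USF1 comparison was repeated with quantile normalization, with arrays centred on their medians, with the brightness limit removed or moved to the 60th percentile, after adding 16 intensity units, with probe sets averaged or tested singly, with a robust prior and intensity trend, and without each array. The count of repair genes that fell ranged from 6, with no limit, to 13, at the 60th percentile, in place of 9. In these 2 settings 20.1% and 55% of all tested genes passed in either direction, in place of 40.7%. Leaving out single arrays gave 7 to 11 lower and 1 to 4 higher, while 31.8% to 38.1% of all tested genes passed. With no limit on dim genes 1 was higher in place of 3. The calls of BRCA1, RAD51AP1, MRE11, DNA2, FANCB and USP1 held in each of 15 settings, the replicate block included. RAD51C, RAD50, WRN, ATM and UBE2T also missed the threshold with no limit on dim genes (adjusted p = 0.0692, 0.0854, 0.0503, 0.0688 and 0.108), and UBE2T with each probe set on its own (0.0526). USF1 fell in each setting that kept it, by 0.33 to 0.46 without single arrays, and the 60th percentile left it untested. Whether the replicate numbers pair the arrays could not be told. Deviations of same-numbered arrays correlated at -0.10, 0.20 and 0.09, beside -0.27 to 0.19 for arrays of different number. So few arrays cannot settle it. With the replicate number as a block 2 repair genes were higher and 7 lower, and RAD50, ATM and UBE2T missed the threshold (0.0682, 0.0566 and 0.0953).

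In the UGT1A3 pair 15 to 19 repair genes were lower by the size limit under the other scalings, brightness limits and probe set rules. Of the 18, 13 were so in each that gave them a value. Over all 11620 measured genes the count lower by the limit was 688 with 16 units added and 1154 with centred arrays, in place of 932. RAD51AP1 and USP1 missed it as the mean of their probe sets (-0.27 and -0.32), ATRIP and PMS2 with 16 units added (-0.29 and -0.24), and FANCC with both. As the mean of all probe sets 1 gene, RAD50 at 0.33, was higher by the limit in place of 0, and CHEK2 turned to -0.05. At 1.5-fold, added after seeing the data, 4 were lower. With 1 array per group, the pair has no measure of spread.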

Other observations

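In the UGT1A3 pair 223 of 11620 measured genes had a difference of exactly 0 between the arrays to the 5 decimals given, ATR among them. The dimmest BRIP1 probe set changed by -0.27 after USF1 knockdown and the brighter one by 0.07, both under the limit on dim probe sets.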
